A study of Homo sapiens with 12 samples.

Results

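The miR-181 family is described here through its 4 guide strands on the array, hsa-miR-181a, hsa-miR-181b, hsa-miR-181c and hsa-miR-181d, which were chosen by name from 851 human microRNA names (written below without the prefix hsa-). The RNA came from SUM159, an established human breast cancer line of the triple-negative type, and was read on 12 single-colour Agilent microRNA arrays in 4 groups of 3 biological replicates. The groups were Dicer shRNA cells with 0.5 mM metformin, control shRNA cells with 0.5 mM metformin, Dicer shRNA cells with vehicle (PBS) and control shRNA cells with vehicle, each treated for 24 h. All cells carried a stably integrated pLKO.1 lentiviral vector and grew with serum, insulin and hydrocortisone. The control vector expressed a scrambled shRNA and the other an shRNA against Dicer, and whether either line was a clone or a pool is not given in the sources used here. Both metformin groups lay on 1 slide and both vehicle groups on another, by the deposited array identifiers, so a metformin difference cannot be told apart from a slide difference. On both slides the control shRNA samples took the same 3 positions, so the same holds for line and position. Titles, characteristics and descriptions gave the same groups. The source names of the 6 metformin samples did not, and call all of them control, the 3 Dicer shRNA samples treated and the 3 control shRNA samples untreated. Every comparison with a metformin group, the interaction included, rests on the titles. Dicer mRNA is not among the array's targets, so the knockdown was not checked here.

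A microRNA is cut in the nucleus by Drosha from a long primary transcript, and the hairpin that results is cut in the cytoplasm by Dicer into a short duplex. One strand of the duplex, the guide, is kept by an Argonaute protein and pairs with mRNAs mainly through its seed, while the other strand, the passenger, is mostly lost. In mice, miR-181a tunes the sensitivity of developing T cells to antigen by lowering phosphatases of the receptor pathway, and miR-181 was among the first microRNAs linked to B cell differentiation. In human breast cells members of the family have been linked to TGF-beta signalling, to the inflammatory STAT3 circuit and to repression of the DNA damage kinase ATM. The series asked how metformin alters microRNAs and whether Dicer matters for it.

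The guide sequences are shown because the members differ by few bases and share one seed, printed in capitals (bases 2 to 8 from the 5′ end, RefSeq, build GRCh38.p14).
miR-181a: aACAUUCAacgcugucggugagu
miR-181b: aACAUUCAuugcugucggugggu
miR-181c: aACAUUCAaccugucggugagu
miR-181d: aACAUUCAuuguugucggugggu
Counting from the 5′ end of the first named, miR-181a and miR-181b differ at 3 of 23 positions (A9U, C10U and A21G), miR-181b and miR-181d differ at 1 (C12U), and miR-181c equals miR-181a without the base at position 11. Among 2370 RefSeq mature names, 5 hold this seed (0.211%). They are the 4 members and miR-4262, which has no probe on the array.

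The hairpin genes lie in neighbouring pairs, and the genes of a pair make different guides. miR-181a and miR-181b are made both on chromosome 1 (MIR181A1 and MIR181B1, 61 bases apart, chr1:198858873-198859153, minus strand) and on chromosome 9 (MIR181A2 and MIR181B2, 1158 bases apart, chr9:124692442-124693798, plus strand). miR-181c and miR-181d are made on chromosome 19 (66 bases apart, chr19:13874699-13875011, plus strand). In the gene table the chromosome 1 pair lies within the span of the non-coding gene MIR181A1HG, the chromosome 9 pair within those of MIR181A2HG and NR6A1, and the chromosome 19 pair within that of NANOS3. Exons were not annotated there. The miR-181a guide is the same from both loci, so its signal cannot be divided between them, whereas the passenger strands differ. The hairpins of MIR181A1 and MIR181A2 are shown with the guide (first) and the passenger strand (second) in capitals, the arms that Dicer cuts apart.
MIR181A1: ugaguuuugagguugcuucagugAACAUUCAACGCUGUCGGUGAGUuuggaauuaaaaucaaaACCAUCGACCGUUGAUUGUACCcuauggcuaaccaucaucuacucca
MIR181A2: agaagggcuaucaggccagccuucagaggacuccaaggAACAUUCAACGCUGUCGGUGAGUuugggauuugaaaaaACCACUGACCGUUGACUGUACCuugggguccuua
The array names miR-181a* and miR-181a-2* are the passenger strands of these hairpins (now miR-181a-3p and miR-181a-2-3p). They differ at 3 of 22 positions, U5C, C6U and U16C, the first and second of which lie in the seed.

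The arrays detected 130 to 204 human names each, and 98 names were detected on all 12. No replicate pair shared an identical detected value. The marker lists used here were chosen with earlier results of these data known. They describe the cells and cannot check the cell label. All 6 microRNAs typical of mesenchymal-like breast lines were detected on each vehicle array. Their summed scaled signal was 466 to 551 with Dicer shRNA and 1122 to 1185 with control shRNA. On the metformin slide 5 of the 6 were detected on all 3 Dicer shRNA arrays and 4 of the 6 on all 3 control shRNA arrays, where miR-125b was detected on 1 array and miR-146a on 0. Their sum there was 218 to 299.9 with Dicer shRNA and 74.9 to 94.6 with control shRNA. None of 6 listed epithelial microRNAs (the miR-200 family and miR-203) was detected on any array. The list did not hold miR-205, which entered the fit below, so the absence covers the 6 listed names only. The log2 difference of miR-205 was -2.33 for Dicer shRNA against control shRNA cells with vehicle. It was -2.36 for metformin against vehicle in control shRNA cells. With 3 arrays per group, precision is limited by their number throughout.

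miR-181a and miR-181b were both detected on all 12 arrays, at 10.1 to 13.5 times the stated error of the signal. Values are array signals scaled to the 75th percentile of each array, with a floor of 3.01 (log2 1.59) for undetected and lower signals where log2 is used. miR-181a read 94.5, 100.1 and 76.2 in Dicer shRNA cells with metformin, and 39.9, 40.4 and 44.3 in control shRNA cells with metformin. It read 133, 134 and 116 in Dicer shRNA cells with vehicle, and 138, 149 and 122 in control shRNA cells with vehicle. The control shRNA arrays with metformin were thus the lowest, the Dicer shRNA arrays with metformin lay between, and the vehicle groups lay highest and overlapped each other.

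miR-181b followed the same order. Its scaled signal was 64.8, 78.9 and 62.3 in Dicer shRNA cells with metformin, and 27.9, 30.9 and 36.3 in control shRNA cells with metformin. It was 102, 112 and 92.9 in Dicer shRNA cells with vehicle, and 109.5, 107 and 87.8 in control shRNA cells with vehicle. Only the vehicle groups overlapped for this member too. From lowest to highest array the scaled signal spanned 3.73-fold for miR-181a and 4.03-fold for miR-181b.

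The chromosome 19 members were at or below the limit of detection. miR-181c was not detected on any of the 12 arrays, although its sequence lacks a single base of miR-181a. miR-181d was detected on 3 arrays, with scaled signals of 3.46 on Dicer shRNA replicate 3 with vehicle and of 3.23 and 4.40 on control shRNA replicates 2 and 3 with vehicle, each 3.07 to 3.48 times its error. It was not detected on the 6 metformin arrays. Neither member passed the filter on detection (all 3 arrays of at least 1 group), so 2 of the 4 members were tested. When names detected on any array were admitted, miR-181d did not pass in any comparison (smallest adjusted p 0.15, limma).

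**Figure D1:**
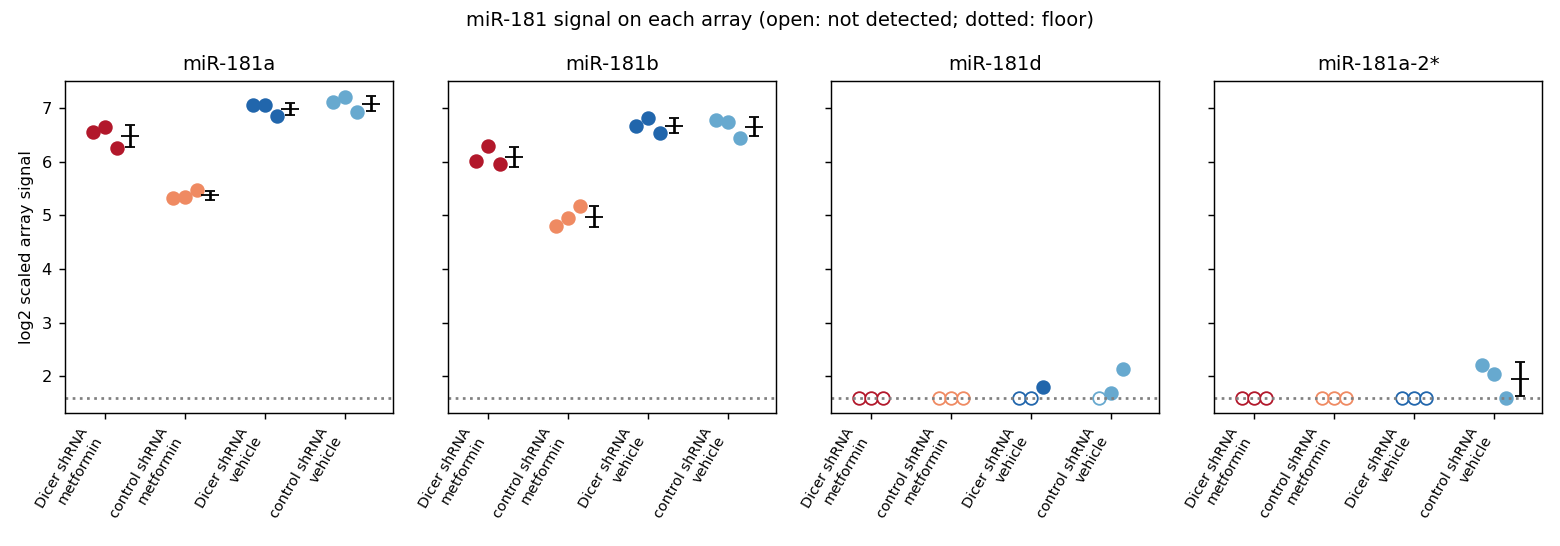
Log2 scaled signal of miR-181a, miR-181b, miR-181d and the passenger strand miR-181a-2* on each array (filled, detected; open, not detected and set to the floor, the dotted line at 1.59), with the mean and SD of groups detected on all 3 arrays. miR-181a and miR-181b are lowest in control shRNA cells with metformin, and miR-181d and miR-181a-2* are seen on vehicle arrays only.

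The knockdown was compared first within the metformin slide. There both detected members were higher with Dicer shRNA than with control shRNA. Mean scaled miR-181a was 90.3 ± 12.5 in Dicer shRNA cells and 41.6 ± 2.43 in control shRNA cells (SD, n = 3 each), a log2 difference of 1.11 ± 0.13 (SE) or 2.16-fold (adjusted p 5.4e-05, limma, Benjamini-Hochberg over 208 names, called where under 0.05). Mean scaled miR-181b was 68.7 ± 8.96 in Dicer shRNA cells and 31.7 ± 4.27 in control shRNA cells (SD, n = 3 each), a log2 difference of 1.11 ± 0.14 or 2.17-fold (adjusted p 0.00014, limma). For both members all 3 Dicer shRNA arrays lay above all 3 control shRNA arrays. Of the 208 tested names 38.9% were called, 13.9% higher and 25% lower, and 13.9% had all Dicer shRNA arrays above the control arrays. Among the 98 names detected on all arrays, 19.4% were called higher and 24.5% lower. The median difference over all tested names was -0.24, and 90.9% of them had a smaller difference than miR-181a. The array's control features named hur, of which 4 were detected on all arrays, were higher too, with a median of 1.95, while 9 of 10 viral microRNA probes were lower (median -0.49). The part of these shifts in the miR-181 difference was not tested. Under the 21 alternatives run for each member the direction and the call held, with differences from 0.71 to 1.45 for both. The split of calls was 29 higher and 52 lower, but 23 and 106 with median scaling, 28 and 24 with viral scaling and 31 and 36 in the series matrix.

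With vehicle, the knockdown left no called difference in either member. Mean scaled miR-181a was 128 ± 9.96 in Dicer shRNA cells and 136 ± 13.3 in control shRNA cells (SD, n = 3 each), a log2 difference of -0.09 ± 0.13 with a 95% interval of -0.37 to 0.19 (adjusted p 0.596, limma). Mean scaled miR-181b was 102 ± 9.75 in Dicer shRNA cells and 101 ± 11.9 in control shRNA cells (SD, n = 3 each), a log2 difference of 0.02 ± 0.14 with a 95% interval of -0.30 to 0.34 (adjusted p 0.9995, limma). The arrays of the 2 lines overlapped for both members. In the same fit 59.6% of tested names were called, 21.6% higher and 38% lower, and the miR-181a difference was larger than those of 44.2% of the tested names and that of miR-181b larger than those of 55.3%. Of the 98 names detected on all arrays 40.8% were called higher and 23.5% lower, 27.6% had a smaller difference than miR-181a and 31.6% a smaller one than miR-181b. The 4 hur features were lower (median -0.81) and all 10 viral probes were higher (median 0.87), and their part was not tested.

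This comparison rested on the scaling. Scaled to viral microRNAs, miR-181a (-1.29, adjusted p 0.00013, limma) and miR-181b (-1.18, adjusted p 5.5e-05) were both called lower, but the median of all tested names then lay at -0.98, so that the members stood 0.31 and 0.20 below it. Scaled to the median, miR-181a (-0.51, adjusted p 0.0064, limma) and miR-181b (-0.39, adjusted p 0.028) were called lower as well, with the median of all tested names at -0.24. After quantile normalization they read 0.23 and 0.42, and miR-181b was called higher (adjusted p 0.017, limma). The split of all calls was 45 higher and 79 lower, against 61 and 53 with quantile normalization, 32 and 90 with median scaling and 4 and 128 with viral scaling.

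**Figure D2:**
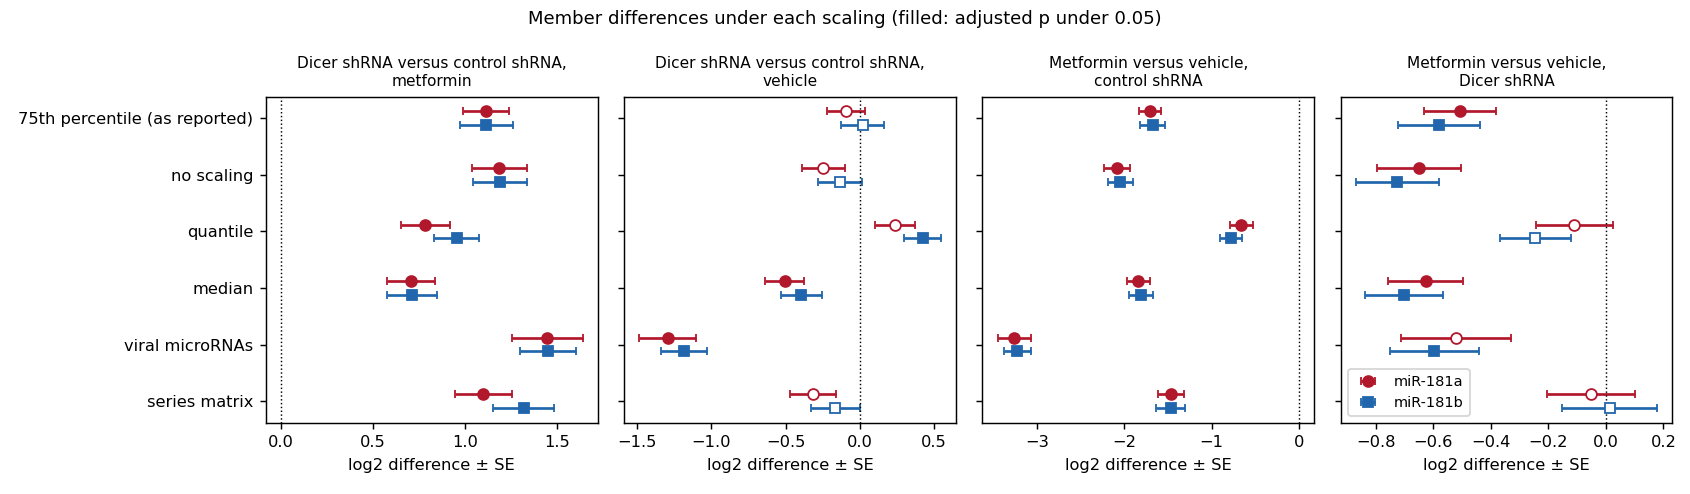
Log2 difference ± SE of miR-181a and miR-181b in 4 comparisons (columns) under each scaling of the arrays and in the series matrix (rows), filled where the adjusted p was under 0.05. The differences of the Dicer shRNA lines under metformin and of metformin in control shRNA cells keep their sign and call in every row, while those of the knockdown with vehicle run from -1.29 to 0.42.

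Metformin was compared next, within each line. In control shRNA cells miR-181a and miR-181b were lower with metformin than with vehicle. miR-181a fell by 1.71 ± 0.13 on the log2 scale, or 3.27-fold, with means of 41.6 ± 2.43 with metformin and 136 ± 13.3 with vehicle (SD, n = 3 each, adjusted p 3.9e-07, limma). miR-181b fell by 1.68 ± 0.14, or 3.20-fold, with means of 31.7 ± 4.27 with metformin and 101 ± 11.9 with vehicle (SD, n = 3 each, adjusted p 1.4e-06, limma). All 3 metformin arrays lay below all 3 vehicle arrays for both. In this comparison 88% of tested names were called, 47.6% higher and 40.4% lower, and 40.4% had all metformin arrays below the vehicle arrays. Of the 98 names detected on all arrays 62.2% were called higher and 25.5% lower. A difference lower than that of miR-181a was seen for 26.9% of the tested names. The 4 hur features were lower (median -3.84) and all 10 viral probes were higher (median 1.38), and their part was not tested. The direction and the call held under all 21 alternatives, over -3.26 to -0.66 for miR-181a and -3.23 to -0.78 for miR-181b. The extremes were scaling to viral microRNAs, where the median of all tested names was -0.91 against 0.52 as reported, and quantile normalization. The split of calls, 99 higher and 84 lower, was 44 and 117 after scaling to viral microRNAs.

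In Dicer shRNA cells the metformin arrays differed less from the vehicle arrays. miR-181a fell by 0.51 ± 0.13 on the log2 scale, or 1.42-fold, with means of 90.3 ± 12.5 with metformin and 128 ± 9.96 with vehicle (SD, n = 3 each, adjusted p 0.015, limma). miR-181b fell by 0.58 ± 0.14, or 1.5-fold, with means of 68.7 ± 8.96 with metformin and 102 ± 9.75 with vehicle (SD, n = 3 each, adjusted p 0.015, limma). All 3 metformin arrays lay below all 3 vehicle arrays for both members. Of the tested names 24.5% were called, 18.3% lower and 6.25% higher, and 20.7% had all metformin arrays below the vehicle arrays. Of the 98 names detected on all arrays 16.3% were called lower and 11.2% higher. The 4 hur features were lower (median -0.999), and 8 of 10 viral probes were higher (median 0.34). Their part was not tested. The values were small beside the effect of the processing. In the authors' deposited series matrix the differences were -0.051 for miR-181a and 0.014 for miR-181b, and after quantile normalization -0.11 and -0.25, none of them called. The call on miR-181a was lost without Dicer shRNA replicate 2 with vehicle (adjusted p 0.058, limma) or replicate 3 with metformin (0.054), and that on miR-181b without either of these (0.059 and 0.065) or without replicate 1 with metformin (0.052). The split of calls, 13 higher and 38 lower, was 33 and 25 with quantile normalization, 15 and 24 with viral scaling, 6 and 44 without scaling and 34 and 12 in the series matrix.

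The knockdown difference itself differed between the slides. The difference of Dicer shRNA and control shRNA cells under metformin minus that with vehicle was 1.20 ± 0.18 for miR-181a (adjusted p 0.00017, limma, 12 arrays) and 1.10 ± 0.20 for miR-181b (adjusted p 0.00076). The same term says that the metformin difference was that much less negative in Dicer shRNA cells. Of the tested names 76.4% were called in this term, 37% higher and 39.4% lower (21.4% and 50% of the 98 names detected on all arrays), and 69.7% had a lower value than miR-181a. The values ran from 0.55 to 2.74 for miR-181a and from 0.53 to 2.63 for miR-181b over 26 alternatives each, all above 0 and called. Without replicate 1 of control shRNA with metformin the term was 0.82 for miR-181a and 0.65 for miR-181b (adjusted p 0.0036 and 0.010, limma). Scaling, floor and filter were recomputed on the arrays left in, so the values of those arrays moved as well. In that run miR-181a differed by 1.05 between the lines under metformin and by -1.32 for metformin in control shRNA cells. The split of calls, 77 higher and 82 lower, was 114 and 21 after scaling to viral microRNAs. The 2 slides share no group, so this difference cannot be told apart from one between slides that is not additive on the log2 scale.

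**Figure D3:**
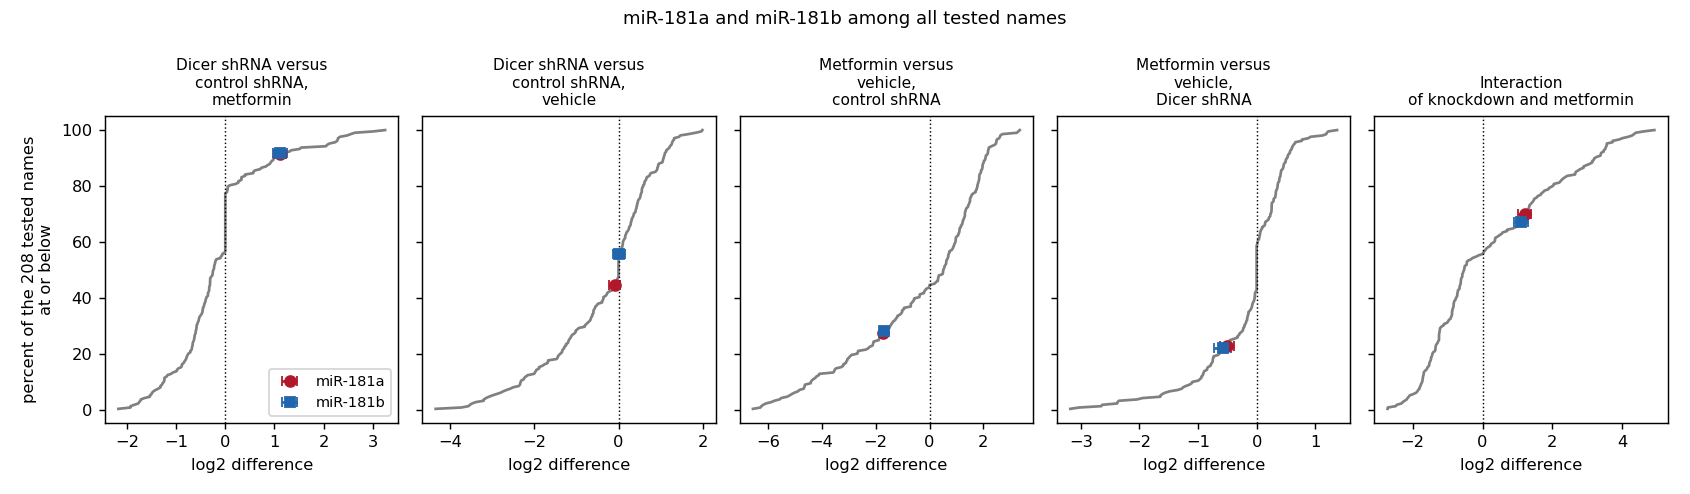
Cumulative distribution of the log2 differences of the 208 tested names (grey line; vertical axis, percent of names at or below a value) in each comparison and in the interaction, with miR-181a and miR-181b ± SE at their place. For the knockdown under metformin 90.9% of names lie below miR-181a and 91.3% below miR-181b, and for metformin 26.9% and 27.9% in control shRNA cells.

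The 2 detected members kept a nearly constant ratio to each other. Since both come from the same array, this ratio is free of any scaling by a constant, and its absolute value depends on the 2 probes and says nothing of which microRNA is more abundant. The log2 signal of miR-181b minus that of miR-181a was -0.54, -0.34 and -0.29 in Dicer shRNA cells with metformin, and -0.51, -0.39 and -0.29 in control shRNA cells with metformin. It was -0.38, -0.25 and -0.32 in Dicer shRNA cells with vehicle, and -0.33, -0.48 and -0.48 in control shRNA cells with vehicle. The ranges of the 4 groups overlapped one another, and the whole range over 12 arrays was -0.54 to -0.25.

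Between groups the ratio shifted by 0.00 ± 0.08 for the knockdown under metformin (95% interval -0.19 to 0.20) and by 0.11 ± 0.08 for the knockdown with vehicle (-0.08 to 0.31). For metformin it shifted by 0.03 ± 0.08 in control shRNA cells (-0.16 to 0.23) and by -0.07 ± 0.08 in Dicer shRNA cells (-0.27 to 0.12). The exact two-sided permutation p of these 4 comparisons ran from 0.2 to 1, where 3 arrays against 3 cannot go below 0.1. Within these intervals the changes of miR-181a and miR-181b could not be told apart.

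**Figure D4:**
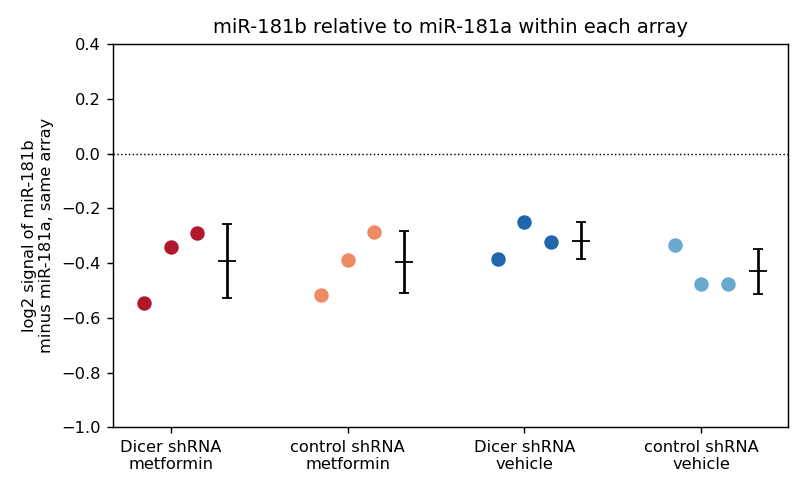
Log2 signal of miR-181b minus that of miR-181a on each array, by group, with the mean and SD of 3 arrays. All 12 values lie between -0.54 and -0.25, and the group means differ by at most 0.11.

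The passenger strands were detected in 1 group only, control shRNA cells with vehicle. miR-181a-2*, from the chromosome 9 hairpin printed above, had scaled signals of 4.64, 4.11 and 2.48 there, the last below the floor of 3.01. miR-181a*, from the chromosome 1 hairpin, read 7.70 and 5.16 on replicates 2 and 3 and was not detected on replicate 1, and so was not tested. miR-181c* was not detected on any array. The 9 arrays of the other groups detected none of the 3 passenger strands. Those 9 arrays also detected fewer human names in general, 130 to 180, against 176, 204 and 182 on the control shRNA arrays with vehicle. The part of this in the absence of the passenger strands was not tested, and the share of all names seen in that group only was not counted.

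miR-181a-2* entered the fit only through the group that detected it, which fixed its direction, so its differences are given as a description with no test. With vehicle its mean of measured log2 signals put it 1.12-fold lower in Dicer shRNA than in control shRNA cells. In control shRNA cells it was 1.20-fold lower with metformin than with vehicle. Each array without detection took its lowest detected signal of any name or the floor, whichever was higher. Both folds rest on this choice and are not strict bounds. Replicate 3 of control shRNA with vehicle, at 2.48, lay below the floor, so on the floored log2 scale the groups touched. After quantile normalization both differences were 0.

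By likeness across the 12 arrays, the names nearest to miR-181a, other than miR-181b (Pearson r 0.99), were miR-99b (0.98), miR-151-3p (0.97) and miR-1308 (0.97). Those nearest to miR-181b were miR-1308 (0.97), miR-222 (0.96) and miR-1826 (0.96). The median r over the 96 other names detected on all arrays was -0.66 for miR-181a and -0.62 for miR-181b, and 12 names exceeded 0.9 for each. The 12 arrays share 4 groups, so these values mostly describe the differences between groups. On deviations from the group means the r of miR-181a was 0.80 with miR-181b, 0.88 with miR-99b, 0.81 with miR-151-3p and 0.49 with miR-1308. That of miR-181b was 0.66 with miR-1308, 0.33 with miR-222 and 0.21 with miR-1826. Under metformin the lines differed by 1.54 for miR-1308, 2.05 for miR-222 and 2.29 for miR-1826, against 1.11 for miR-181b. miR-99b, a relative of miR-100, differed by 0.92 between the lines under metformin and by -0.39 with vehicle, and fell by 1.84 with metformin in control shRNA cells and by 0.53 in Dicer shRNA cells.

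Beside the family, 9 microRNAs linked to inflammation and to the epithelial-mesenchymal transition were examined (miR-21, miR-155, miR-146a, miR-146b-5p, miR-9, miR-10b, miR-221, miR-222 and miR-125b), of which 6 were tested and 5 are also among the mesenchymal-like microRNAs above. With vehicle all 6 were called lower in the Dicer shRNA line than in the control line, as were 38% of all tested names. The list median was -1.17, against 0 over all tested names. Among the 6 the NF-kB-induced miR-146a fell by 2.74 ± 0.29. Neither miR-181 member was called in that comparison. Under metformin 4 of 6 were called higher in Dicer shRNA cells (13.9% of all tested names) and 1, miR-155, lower (25% of all tested names). The list median was 2.08, against -0.24. With metformin 5 of 6 were called lower (40.4% of all tested names) and 1 higher (47.6%) in control shRNA cells, with a median of -4.94 against 0.52. In Dicer shRNA cells 5 of 6 were called lower with metformin (18.3% of all tested names), with a median of -1.07 against 0. miR-146a was not detected in control shRNA cells with metformin and stands at the floor there. In the interaction 5 of 6 were called higher (37% of all tested names) and 1 lower (39.4%), with a median of 3.42 against -0.53. The list median had the sign of the miR-181 values wherever the pair was called, and these medians exceeded them in size, though no test of that difference was made.

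Because miR-181 is abundant in lymphocytes, 7 lymphoid and blood microRNAs were read as well. Of these, miR-142-3p, miR-142-5p, miR-150, miR-451 and miR-144 were not detected on any array. miR-223 and miR-486-5p were detected on the 3 control shRNA arrays with metformin only, at a summed scaled signal of 15.2 to 20.4, in the group where miR-181a and miR-181b were lowest.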

How the data were processed

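Total RNA was labelled with Cy3, per the labels. The array files hold a total gene signal per name, a linear intensity, with its error and a detection flag, per the file headers. The submitters' processing notes name Agilent Feature Extraction 9.1, and undetected names hold 0.1 in the deposited files. The authors' deposited series matrix holds log2-like values of 221 names (column medians 3.19 to 4.06) that follow log2 of the array signal (r at least 0.997) and rise with it. How it was normalized and centred stays unknown. Groups were taken from the titles, since the source names of both metformin groups disagree with them.

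Signals were divided by each array's 75th percentile, taken over the 98 human names that all 12 arrays detected and expressed relative to its geometric mean (0.869 to 1.20). Scaled signals below a floor of 3.01, the median of the arrays' 5th percentiles of detected signals, were set to it, and log2 was taken. A model of 4 group means was fitted to the 208 names that every array of some group detected, with limma 3.58.1 (R 4.3.3, data.table version 1.17.8; 8 residual and 1.85 prior degrees of freedom), and p adjusted by Benjamini-Hochberg under 0.05 is a call. Where no array of a group detected a name, the fold starts from the other group's mean of measured log2 signals. Each array without detection then takes its lowest detected signal of any name or the floor, whichever is higher. The fit was tested on simulated data with normal noise and 1 changed group. That simulation held no undetected values, scaling or slide difference, so it does not cover them. Sequences and gene spans are RefSeq's (GRCh38.p14), matched by name for all 7 miR-181 names on the array. Python 3.11.15, numpy 2.4.6, pandas 2.3.3 and matplotlib 3.10.9 were used. A version suffix on 11 array names was dropped.

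The text names the 4 members, the passenger strands, per detected member the 3 names with the highest Pearson r, up to 3 members of the inflammation list, and detected blood microRNAs. It also names miR-205, which is on none of the lists. Members and the 4 lists were chosen with earlier results of these data known. Alternatives covered scaling, floor, filter, series matrix, groups in the fit, array weights, a variance trend, the replicate number as a block and leaving out each array.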

Additional observations from a re-analysis of the deposited data

Results flagged for a closer look

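The knockdown difference of 2 members differed between the metformin slide and the vehicle slide, by a test of the difference itself. The difference of Dicer shRNA and control shRNA cells under metformin minus that with vehicle was 1.20 for miR-181a and 1.10 for miR-181b (limma, adjusted p 0.00017 and 0.00076, 12 arrays). Such a call is common here, since 76.4% of the 208 tested names were called in this term. A lower value than that of miR-181a was seen for 69.7% of them, and than that of miR-181b for 66.8%. The 3 Dicer shRNA arrays lay above the 3 control shRNA arrays under metformin, and the lines overlapped with vehicle. Slide and treatment cannot be told apart.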

How the results depend on the processing

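miR-181a and miR-181b kept direction and call for the knockdown under metformin, metformin in control shRNA cells and the interaction under every alternative run. With 1 array left out the interaction ran from 0.82 to 1.32 for miR-181a and from 0.65 to 1.20 for miR-181b, lowest without control shRNA replicate 1 with metformin. Each such run recomputed the scaling, floor and filter, so it changed more than the array left out. For the knockdown with vehicle, miR-181a was 0.23 after quantile normalization and was called at -0.51 (median) and -1.29 (viral microRNAs), while miR-181b was -0.13 without scaling and with the 75th percentile over all human names (which is 0.1 on every array and so equals no scaling), -0.16 in the series matrix, and called at -0.39 (median), -1.18 (viral) and 0.42 (quantile). With 1 array left out it was -0.059 to 0.086, below 0 without replicate 3 of control shRNA or replicate 2 of Dicer shRNA. For metformin in Dicer shRNA cells, miR-181a was not called after quantile normalization (-0.11), viral scaling (-0.52), in the series matrix (-0.051), without a filter (-0.51) or with only the 2 groups (-0.51), nor was miR-181b (quantile -0.25, matrix 0.014, no filter -0.58, only the 2 groups -0.58). With 1 array left out they ran from -0.59 to -0.39 and from -0.69 to -0.51. Apart from alternatives that test other names or fewer arrays, the cause was not tested.

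Calls over all names moved for the knockdown under metformin from 81 to 129 (median), 52 (viral) and 126 (array weights), and for metformin in Dicer shRNA cells from 51 to 31 (a floor divided by 4), 24 (no filter), 19 (only the 2 groups), 82 (array weights) and 32 to 72 with 1 array left out (33 without Dicer shRNA replicate 2 with vehicle, 32 without replicate 3 with metformin). Among the 98 names detected on all arrays they were 44 and 28, 64 for the knockdown with vehicle, 86 for metformin in control shRNA cells and 72 for the interaction. Without a filter 604 of 851 names have no spread, so that fit is unreliable. Admitting names detected on at least 1 array was chosen after seeing the data.

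With the replicate number as a block the calls were 83, 124, 182, 47 and 159, in the order knockdown under metformin, knockdown with vehicle, metformin in control shRNA, metformin in Dicer shRNA and interaction. miR-181a and miR-181b kept their values and calls. Same-numbered arrays shared deviations with r from -0.18 to 0.32. Whether the numbers pair the arrays was not tested. Signals near the floor limit miR-181d and the passenger strands.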
